A study of Mus musculus with 6 samples.

Results

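Ezh2 occupancy of promoters was compared between 2 lines of mouse embryonic stem (ES) cells that both carry wild-type Brca1, R1 and AB2.2. The comparison used 3 of the 6 arrays of the study: the single array of R1 cells transfected with control siRNA, and the 2 arrays of AB2.2. Each array was centred on its probe median, and the unit was the array tile, the stretch of promoter that the array covers without a break, with the mean of its probes as its value. Of 18614 tiles, the 18545 with at least 5 probes were used; they held a median of 38 probes over a median of 4000 bp. In 9055 of them lay a transcription start that the authors' peak lists name, which gave 9614 named genes.

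All values are log2 ratios of immunoprecipitated DNA over input DNA, with 0 at the median probe of each array. R1 cells were harvested 48 h after transfection with control siRNA, and AB2.2 cells, of strain 129/SvEvBrd-Hprtb-m2 per the labels, had no transfection in the labels, which give no strain for R1. Both lines grew on gelatin in the same medium with LIF, and Ezh2 was precipitated with the same lot of 1 antibody and amplified by ligation-mediated PCR. The other 3 arrays, R1 with Brca1 siRNA (1 array) and the Brca1-deficient line PL2F8 (2 arrays), are given only beside the values of the tiles described. PL2F8 and AB2.2 are each a single line, and binding data cannot check the identity of the cells: the tiles of Pou5f1 and Nanog, which define ES cells when expressed, lay between -0.09 and 0.11 on the 3 arrays. Line, transfection and array series cannot be told apart, because the R1 control array and the AB2.2 arrays also belong to different number series in the array names. The PL2F8 duplicates lay in both of these series, and no tile differed between them by 0.5 or more. They are of another line, and the part of the series in R1 control against AB2.2 was not tested. Nothing in the labels says that the AB2.2 duplicates came from separate cultures, so their spread may be technical.

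Ezh2 is the methyltransferase subunit of Polycomb repressive complex 2 (PRC2), which methylates histone H3 at lysine 27. In ES cells PRC2 lies mainly at CpG-rich promoters of genes that are silent there and are used later in development, such as homeobox genes and signalling ligands. At these promoters a related complex, PRC1, contributes to keeping transcription low.

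The tiles that differed most included promoters of very different base composition. Where the sequence tables held them, 5 are shown as the 250 bases before the RefSeq start (build GRCm38.p6), with every CG in capitals, because Polycomb complexes are known to occupy CpG-rich DNA. Dbx1 and Pax1 are homeobox and paired-box genes with more Ezh2 signal in R1, and Mapk12, Dnahc8 and the olfactory receptor Olfr1501 had more in AB2.2. The windows lie at chr7:49636836-49637085 on the minus strand, chr2:147364744-147364993 on the plus strand, chr15:89140704-89140953 on the minus strand, chr17:30626686-30626935 on the plus strand (under the symbol Dnah8) and chr19:13839172-13839421 on the minus strand.
Dbx1: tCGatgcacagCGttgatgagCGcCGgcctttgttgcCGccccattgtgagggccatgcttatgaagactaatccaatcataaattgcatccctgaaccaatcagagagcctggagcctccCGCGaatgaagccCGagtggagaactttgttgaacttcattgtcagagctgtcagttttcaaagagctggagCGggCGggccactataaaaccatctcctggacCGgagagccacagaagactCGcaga
Pax1: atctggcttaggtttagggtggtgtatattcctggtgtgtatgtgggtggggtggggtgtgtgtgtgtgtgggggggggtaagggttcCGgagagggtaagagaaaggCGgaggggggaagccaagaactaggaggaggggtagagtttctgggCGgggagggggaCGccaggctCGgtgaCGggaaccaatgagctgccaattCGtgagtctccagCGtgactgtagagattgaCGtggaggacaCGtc
Mapk12: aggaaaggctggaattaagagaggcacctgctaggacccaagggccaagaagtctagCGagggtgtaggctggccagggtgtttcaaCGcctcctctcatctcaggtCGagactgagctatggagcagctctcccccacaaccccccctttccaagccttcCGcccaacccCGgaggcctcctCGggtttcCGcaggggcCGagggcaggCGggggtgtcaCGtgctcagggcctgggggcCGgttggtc
Dnahc8: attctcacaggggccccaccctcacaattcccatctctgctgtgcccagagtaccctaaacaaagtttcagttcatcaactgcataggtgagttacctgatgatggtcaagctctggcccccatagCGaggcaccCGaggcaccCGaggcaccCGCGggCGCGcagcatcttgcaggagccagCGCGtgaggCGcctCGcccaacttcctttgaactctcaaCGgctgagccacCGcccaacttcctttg
Olfr1501: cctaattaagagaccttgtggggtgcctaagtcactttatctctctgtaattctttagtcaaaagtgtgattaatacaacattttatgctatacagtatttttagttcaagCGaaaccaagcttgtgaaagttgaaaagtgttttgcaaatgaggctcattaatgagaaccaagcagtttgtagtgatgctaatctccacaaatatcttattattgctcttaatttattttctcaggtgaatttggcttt
The CG dinucleotide, which reads the same on both strands, occurred 12 times in the Dbx1 window, 10 times at Pax1, 11 times at Mapk12, 13 times at Dnahc8 and 1 time at Olfr1501. Over all 32851 RefSeq windows of the same length the median was 6, with quartiles of 2 and 16, and 92.1% held at least 1. These are counts of letters in these windows only. Because only 77.3% of the named genes had an entry in the sequence table, under the 80% set as a minimum, called and other tiles were not compared for base composition.

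R1 control and AB2.2 had broadly the same map of Ezh2, with signal that reached higher at the strong targets in R1. Over the 18545 tiles the R1 control array correlated with the AB2.2 mean at r = 0.87, as a description across tiles that share arrays and probes, against r = 0.99 between the AB2.2 duplicates. The difference, R1 control minus the AB2.2 mean, had an SD of 0.31 over tiles, against 0.09 between the AB2.2 duplicates, 0.06 between the PL2F8 duplicates and 0.20 between the 2 R1 arrays. A tile was called higher or lower where this difference was at least 0.5 (1.41-fold) and the R1 value lay outside both AB2.2 values; with 1 R1 array there is no test of the line, and a call is a statement about these arrays. By this rule 1733 tiles (9.34%) were higher and 305 (1.64%) lower on the R1 control array, while 8 tiles (0.0431%) differed by as much between the AB2.2 duplicates and 374 (2.02%) between the 2 R1 arrays. The gap between the AB2.2 arrays had a median of 0.09 over the 2038 called tiles.

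The direction of these calls depended partly on how the arrays were scaled. Under quantile normalization of the 6 arrays, 1032 tiles were higher and 564 lower, so that the share of higher among the called tiles went from 85% to 64.7%. All 1032 had been called higher under median centring, and all 305 tiles called lower remained lower. The median difference over all tiles was 0.05 under median centring and -0.03 under quantile normalization. At the threshold itself, the called tiles nearest to it differed by 0.50 and -0.50013, and those just short of it by 0.49974 and -0.49957; 442 and 138 tiles lay within 0.05 of it without being called.

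**Figure D1:**
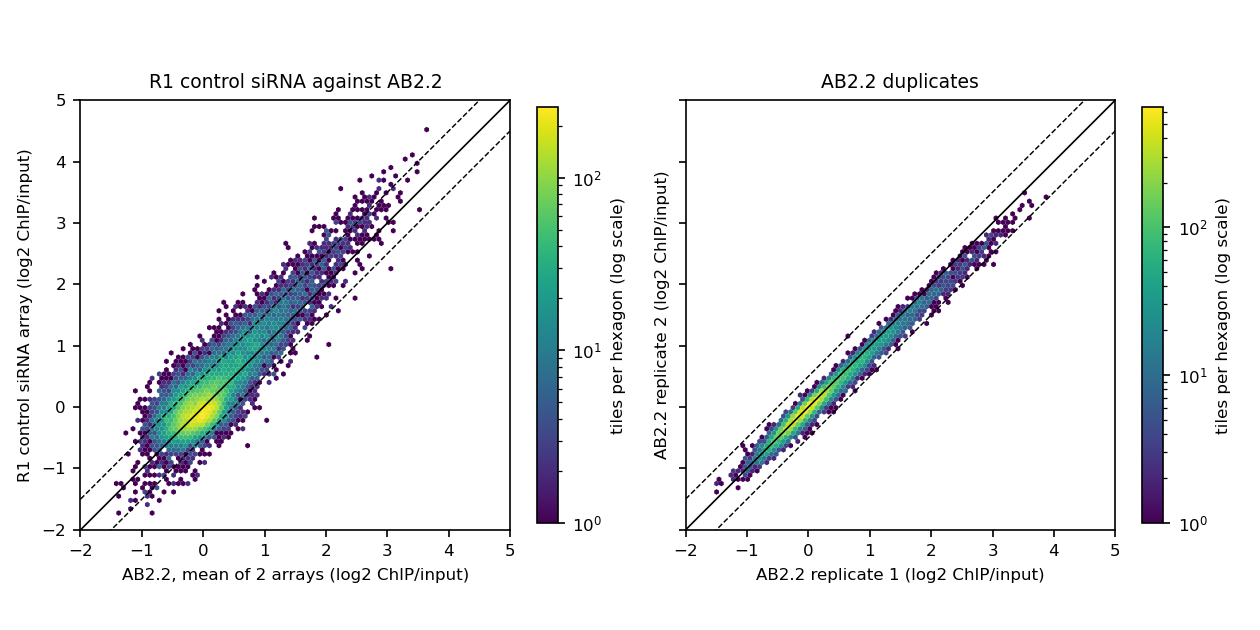
Each hexagon counts tiles on a log colour scale, at their log2 ChIP over input values on the R1 control array against the AB2.2 mean (left) and on the 2 AB2.2 arrays (right). The solid line marks equality and the dashed lines a difference of 0.5; 1733 tiles were called above the upper line and 305 below the lower one on the left, against 8 tiles beyond the lines on the right.

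The excess in R1 was largest where Ezh2 signal was strong. Tiles were grouped by their mean on the 3 arrays not compared here, so that the grouping did not use the difference itself. It is not independent of the lines, however. The 3 arrays include the other R1 array, which correlated with R1 control at r = 0.95 over tiles, and no AB2.2 array. Part of the trend over the groups could come from this, which was not tested. In the 435 tiles below -0.5 the median difference was -0.08, and 3.68% were called higher and 14.0% lower. In the 415 tiles at 2 or above the median difference was 0.45, and 41.9% were called higher and 0.241% lower. Between these ends the share called higher was 4.30%, 8.97%, 16.3%, 19.04% and 27.1% in order of signal. A stretch of the same kind, but smaller, separated the duplicates: in the strongest tiles AB2.2 replicate 1 lay above replicate 2 by a median of 0.20, and PL2F8 replicate 1 above replicate 2 by 0.12.

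**Figure D2:**
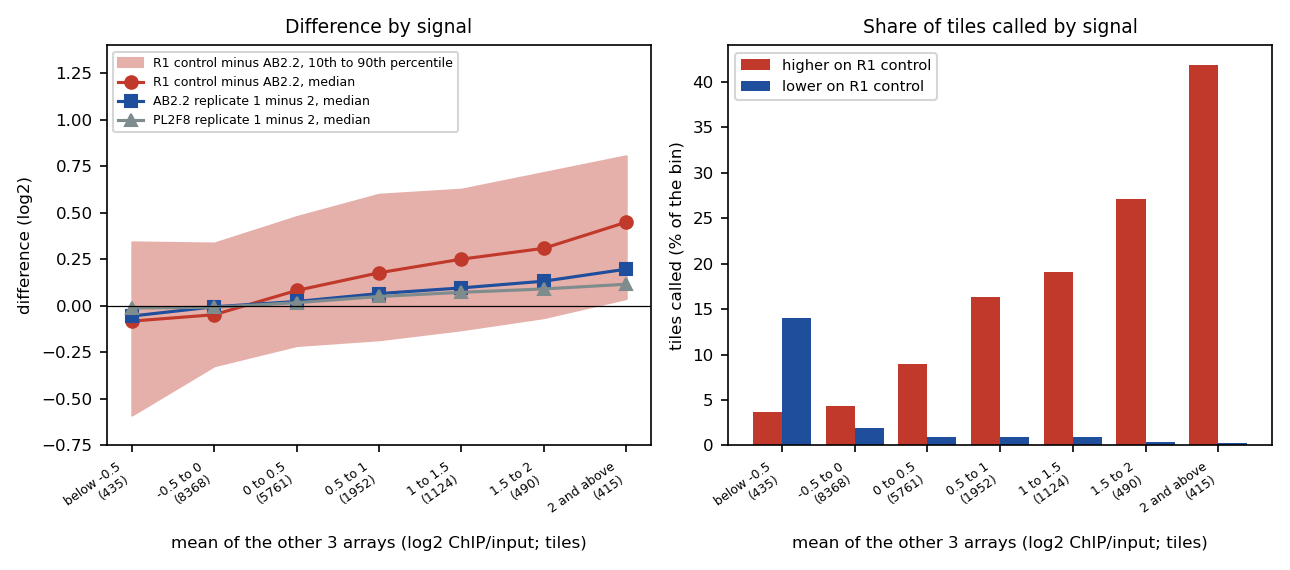
Left, the median difference (log2) of R1 control minus AB2.2 with its 10th to 90th percentile, and of the AB2.2 and PL2F8 duplicates, in 7 bins of tiles by the mean of the other 3 arrays. Right, the percentage of tiles called higher or lower in each bin; the share called higher climbed from 3.68% to 41.9%, and the share called lower went from 14.0% to 0.241%.

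Hox genes, the clustered homeobox regulators of position along the body axis, had the largest list median. All 39 Hox genes had a tile, in 37 tiles, since Hoxa10 shares its tile with Hoxa11 and Hoxa3 with Hoxa5. The list averaged 2.49 on the R1 control array and 1.97 and 1.84 on the AB2.2 arrays (1.90 ± 0.09, SD, n = 2). Of the 39 genes, 25 were called higher and none lower, against 15.6% higher and 1.4% lower among all 9614 named genes. The median difference was 0.64, where all named genes had 0.17 and the strongest bin of tiles 0.45. Under quantile normalization the median of the list was 0.49, with 19 genes higher and none lower, and with the median of the probes 32 were higher. With the highest running mean of 5 probes 19 were higher and 4 lower, where 3713 of all named genes were higher and 1599 lower. Lists here are represented by their members that the authors' peak lists name, and they were chosen with results of these data known. A member whose start the peak lists do not name was left out, whether or not the array covers it. Thus 11 of 42 DNA repair genes and 9 of 28 housekeeping genes were measured.

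By Hox cluster, the counts depended on how a tile was summarised. Hoxa had 10 of 11 genes called higher, with a median difference of 0.78, and Hoxb had 8 of 10, with a median of 0.80. In Hoxc 3 of 9 genes and in Hoxd 4 of 9 were called higher, with medians of 0.28 and 0.47. With the median of the probes in place of the mean, Hoxc had 8 of 9 and a median of 0.68, and under quantile normalization Hoxd had 1 of 9. With the highest running mean the order of the medians was another, at 0.285 for Hoxa, 0.66 for Hoxb, 0.28 for Hoxc and 0.71 for Hoxd. The difference between clusters was not tested. Hoxb6, a homeodomain factor of the trunk, led the list with 3.58 on the R1 control array and 2.34 and 2.16 on AB2.2. It stood at 3.58 on the R1 Brca1 siRNA array and at 2.70 and 2.59 on PL2F8, so that both R1 arrays were above the other 4. Hoxc10, a posterior homeodomain factor, measured 2.89 on the R1 control array and 1.82 and 1.77 on AB2.2. The Hox genes at the other end were Hoxc4, with 1.55 against 1.87 and 1.62, and Hoxa4, with 1.03 against 1.21 and 1.22; neither reached the threshold.

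Other homeobox, paired-box and LIM-homeobox genes followed. Of 117 with a named start, 47 (40.2%) were called higher and none lower, beside 15.6% and 1.4% of all named genes. The median difference was 0.44, and the list averaged 2.33 on R1 control and 1.97 and 1.83 on AB2.2. Of the 415 tiles at 2 or above on the other 3 arrays, 41.9% were called higher, with a median of 0.45, close to this list. Under quantile normalization 28 were higher and none lower. Dbx1, a homeobox gene of spinal cord progenitors, measured 3.05 on the R1 control array and 1.81 and 1.78 on AB2.2, with 2.75 on R1 Brca1 siRNA and 2.60 and 2.52 on PL2F8. Both AB2.2 arrays were thus the lowest of the 6. Pax1, a paired-box factor of the sclerotome, measured 3.73 against 2.69 and 2.38, and its lower values were again those of AB2.2, since the other 3 arrays lay at 3.59, 3.29 and 3.19.

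Regulators of mesoderm and endoderm, of the nervous system, and signalling ligands and their antagonists were shifted in the same direction by smaller medians. Of 71 mesoderm and endoderm regulators, 25 (35.2%) were called higher and 1 (1.41%) lower (median 0.37). Among all named genes 15.6% were called higher and 1.4% lower, and among tiles at 2 or above on the other 3 arrays 41.9% were called higher. Osr1, a zinc-finger factor of kidney and heart precursors, measured 2.58 on the R1 control array and 1.39 and 1.36 on AB2.2. The gene called lower was Tcf15, a bHLH factor of somites, with 0.07 against 0.64 and 0.54; it was not called when replicate 1 of AB2.2 was left out (-0.47), with the median of the probes (-0.355) or with centring on tiles without a listed peak (-0.49). Of 42 neural regulators 12 (28.6%) were higher and 1 (2.38%) lower (median 0.32). Of the 490 tiles at 1.5 to 2 on the other 3 arrays, 27.1% were called higher, with a median of 0.31, close to this list. Fezf2, a zinc-finger factor of the forebrain, measured 3.43 against 2.61 and 2.38, and Olig3, a bHLH factor of the dorsal neural tube, 2.43 against 1.58 and 1.52. The neural gene called lower was Bcl11b, a zinc-finger factor of cortical neurons and T cells, at 1.55 against 2.28 and 2.05; it was not called with the median of the probes (-0.475) or the highest running mean (-0.425). Under quantile normalization 12 of the mesoderm and endoderm and 6 of the neural regulators were higher, where 915 of all named genes were.

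Among 64 signalling ligands and antagonists, 16 (25%) were called higher and none lower, with a median of 0.27. The 16 included 8 Wnt ligands: Wnt2, Wnt2b, Wnt3, Wnt3a, Wnt7a, Wnt7b, Wnt8a and Wnt10b (named here after their values were seen). They were 8 of 19 Wnt ligands with a named start, beside 15.6% higher among all named genes. Wnt7b was not called with the median of the probes (0.2975). Without AB2.2 replicate 1, 25 of the 64 were higher. Wnt3a, a ligand of the canonical Wnt pathway, measured 2.31 on R1 control and 1.41 and 1.17 on AB2.2. Wnt2 measured 2.86 against 2.09 and 1.84. At the other end, Fgf11 measured 2.26 against 2.73 and 2.43, and Ptch1, the Hedgehog receptor, 1.05 against 1.45 and 1.26.

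**Figure D3:**
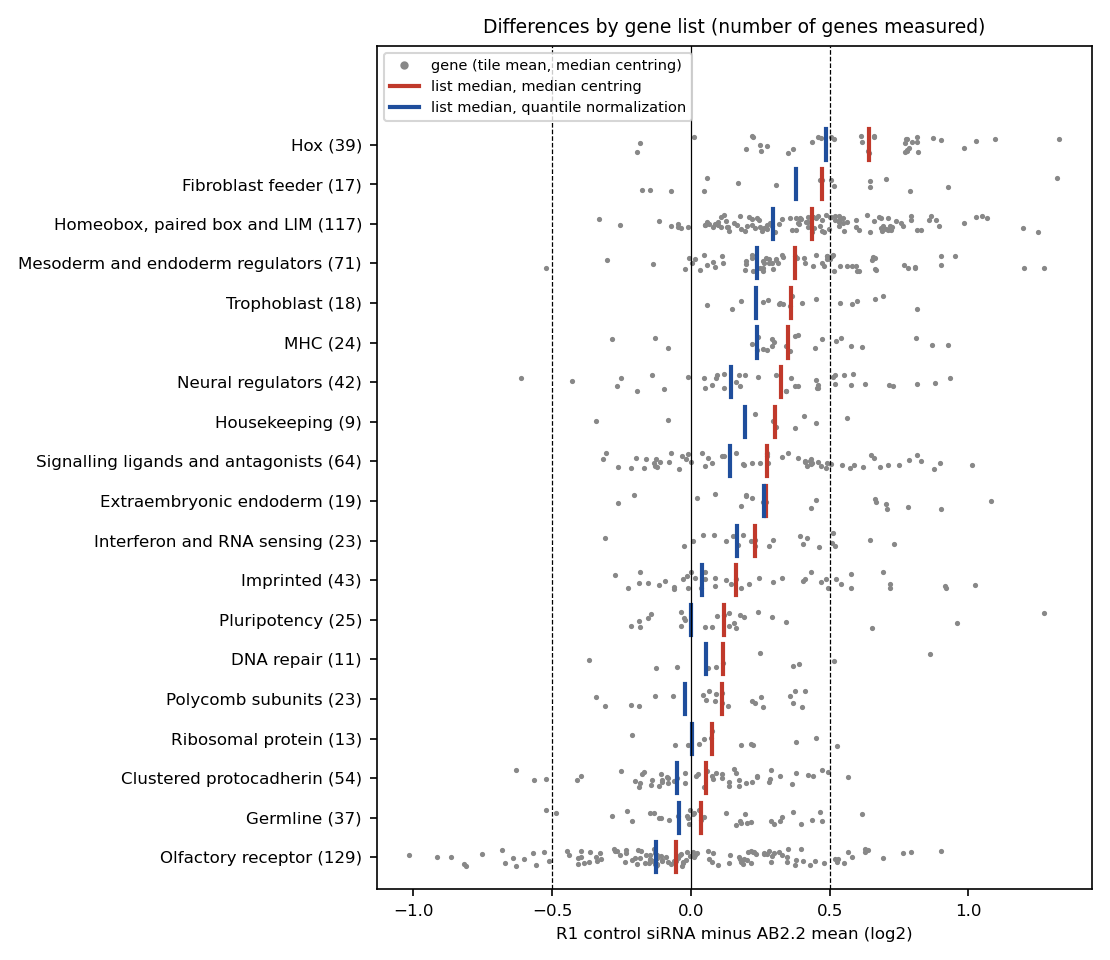
Each grey point is the difference (log2), R1 control minus the AB2.2 mean, of 1 gene of a list, with the median of the list under median centring in red and under quantile normalization in blue; dashed lines mark the call threshold of 0.5. The Hox list has the highest median, 0.64 and 0.49 under the 2 scalings, and the olfactory receptor list the lowest, -0.05 and -0.12.

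Among 25 pluripotency genes 3 were called higher, 12% beside 15.6% of all named genes, so the count was near the background. The list median was 0.12, with 0.0011 under quantile normalization and 0.059 without AB2.2 replicate 2. The called genes were Tbx3, Esrrb and Prdm14, factors of the naive pluripotency network. Tbx3, a T-box factor that also patterns limb and heart, measured 2.64 on the R1 control array and 1.48 and 1.26 on AB2.2. It lay at 2.54 on R1 Brca1 siRNA and at 0.99 and 1.00 on PL2F8, so the 2 R1 arrays were separated from the other 4. Esrrb, an orphan nuclear receptor, measured 2.30 against 1.49 and 1.19, with 2.55 on R1 Brca1 siRNA and 1.99 and 1.96 on PL2F8; AB2.2 was the lowest line. Prdm14, a PR-domain factor also needed in germ cell precursors, measured 1.68 against 1.00 and 1.05. The lowest differences of the list were those of Lin28b and Jarid2, at -0.21 and -0.19, both with values between -0.13 and 0.14 on the 3 arrays.

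Extraembryonic and imprinted genes were set beside the same background of 15.6% higher and 1.4% lower. Among 18 trophoblast genes 6 were higher (33.3%), with a median of 0.36, and among 19 extraembryonic endoderm genes 7 (36.8%), with a median of 0.27 that was 0.18 without AB2.2 replicate 2; under quantile normalization 3 and 5 were higher. Several, Eomes and Gata4 among them, belong to the mesoderm and endoderm list as well, so these counts are not separate. Amn, a membrane partner of cubilin in the visceral endoderm, measured 1.57 on R1 control and 0.60 and 0.37 on AB2.2. Of 43 imprinted genes 10 were higher (23.3%), 6 under quantile normalization, and their median was 0.16, close to that of all named genes; Igf2 and Igf2as share 1 tile. Kcnk9, a potassium channel gene, measured 3.78 against 2.97 and 2.56, and Rasgrf1, an exchange factor for Ras, 2.90 against 2.07 and 1.89. Kcnk9 on PL2F8, at 3.96 and 3.79, was as high as on the R1 arrays, where it was 3.78 and 3.87.

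Fibroblast genes were listed because feeder cells could contribute chromatin, although the labels give gelatin. Of 24 listed genes, 17 had a start that the peak lists name. Of these, 8 (47.1%) were called higher and none lower, beside 15.6% and 1.4% of all named genes. Under quantile normalization 4 were higher and none lower. The list averaged 1.02 on the R1 control array and 0.66 and 0.53 on AB2.2. The part of other cells in the differences was not tested. Col1a1, which encodes a chain of type I collagen, measured 1.56 on R1 control and 0.32 and 0.16 on AB2.2. It measured 1.45 on R1 Brca1 siRNA and 1.07 and 1.03 on PL2F8, so that AB2.2 was again the lowest. Pdgfrb, a receptor for platelet-derived growth factor, measured 1.09 against 0.27 and 0.06.

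The MHC list, with antigen-presenting genes of the major histocompatibility complex, had 7 of 24 (29.2%) called higher and none lower, with a median of 0.35. Among all named genes 15.6% were higher and 1.4% lower. Under quantile normalization 3 of the list were higher, where 915 of the 9614 named genes were. H2-T22, a nonclassical class I gene, measured 1.17 on R1 control and 0.33 and 0.15 on AB2.2, and H2-T3 1.21 against 0.35 and 0.33. On R1 Brca1 siRNA they measured 1.45 and 1.55. Near-identical copies within this family could share probe signal, so single members are uncertain. Of 23 interferon and RNA-sensing genes 5 (21.7%) were higher and none lower, 2 and none under quantile normalization, and the median was 0.23. These counts were not far from those of all named genes. Oas1g, a sensor of double-stranded RNA, measured 0.06 against -0.65 and -0.71 and Oas1a 0.10 against -0.55 and -0.54, so on R1 they lay near the array median and on AB2.2 below it.

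Genes of Polycomb subunits had no called member among 23, beside 15.6% higher among all named genes. Without AB2.2 replicate 1 the call was reached by Cbx8 (0.51), and with the highest running mean 4 members were higher and 5 lower. The median difference was 0.11, with -0.02 under quantile normalization and 0.20 without AB2.2 replicate 1. The ends of this list were Aebp2 and Cbx8, at 0.41 and 0.40, and Rnf2 and Phf19, at -0.34 and -0.31. Cbx8, a PRC1 subunit and itself an Ezh2 target, measured 3.29 on R1 control and 3.00 and 2.78 on AB2.2. Germline genes had 1 of 37 higher, Tex11 (0.78 against 0.13 and 0.21), and 1 lower, Ddx4 (0.63 against 1.10 and 1.21). Ddx4 kept its call in 4 of 8 other settings and lost it, among others, without AB2.2 replicate 2 (-0.47). DNA repair genes had 2 of 11 higher (18.2%), ribosomal protein genes 1 of 13 (7.69%) and housekeeping genes 1 of 9 (11.1%), with medians of 0.12, 0.08 and 0.30 and none lower. Xpa, of nucleotide excision repair, was the largest of these, at 0.55 on R1 control and -0.31 and -0.31 on AB2.2, with 0.55 on R1 Brca1 siRNA and 0.45 and 0.41 on PL2F8; AB2.2 alone was low. Clustered protocadherins, cell adhesion genes of neurons, had 1 of 54 higher and 3 lower, with a median of 0.05. With the median of the probes 4 were higher and none lower, and with the highest running mean 20 were higher and 7 lower.

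Of 129 olfactory receptor genes with a named start, 13 (10.1%) were called higher and 15 (11.6%) lower. Among all named genes these shares were 15.6% and 1.4%. A receptor entered this list only where the peak lists of at least 1 array name its start. Olfr1501 and Olfr168, for example, had a listed peak on both AB2.2 arrays and on no other array. The shares called higher and lower can therefore follow in part from this choice. The median of the list was -0.05, and it averaged 0.09 on the R1 control array and 0.12 and 0.12 on the AB2.2 arrays. Olfr156 measured 0.44 on R1 control and -0.41 and -0.50 on AB2.2, and Olfr168 -0.02 against 0.88 and 0.92. With the median of the probes, 10 were higher and 5 lower, and without AB2.2 replicate 2 the median was -0.08. Close copies in this family could share probe signal too.

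The 15 largest excesses in R1 were of more than 1 kind. At Hoxb6, Dbx1, Tbx3, Lrrn2 and, on AB2.2 replicate 1, Hspb3, Efnb3 and Chrng, the authors listed a peak in AB2.2 as well as in R1. Hspb3, a small heat-shock protein of muscle, measured 1.72 on R1 control and 0.33 and 0.39 on AB2.2, but was highest on PL2F8, at 2.35 and 2.18. Chrng, the fetal subunit of the muscle acetylcholine receptor, measured 0.94 against -0.28 and -0.44. Efnb3, an ephrin ligand of axon guidance, measured 1.18 against 0.15 and -0.26, and Lrrn2, a neuronal leucine-rich repeat protein, 1.60 against 0.50 and 0.24. The AB2.2 duplicates at Efnb3 were further apart than at most called tiles, but both stayed well below R1.

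At the other 8, Col1a1 among them, AB2.2 had no listed peak, and leaving out Col1a1 the AB2.2 arrays measured at most 0.03. The 15 had to overlap a listed peak on at least 1 of the 3 arrays, and all 15 had one on R1 control. The count of 8 therefore follows in part from this choice. Of all tiles called higher, 27.2% had a listed peak on R1 control and neither AB2.2 array, and 25.8% had none on the 3 arrays. Fam92b measured 0.86 on the R1 control array and -0.48 and -0.56 on AB2.2, and Lcn6, a lipocalin of the epididymis, 0.77 against -0.64 and -0.55. With Brca1 siRNA in R1 the same 2 tiles measured 0.06 and 0.14, so the other R1 array was below R1 control there, with differences of -0.80 and -0.63. Rin1, an effector of Ras, measured 0.40 against -0.78 and -0.96, and Ptger1, a prostaglandin receptor, 0.53 against -0.69 and -0.78; on R1 Brca1 siRNA they were at 0.02 and 0.31. The neighbouring X-linked Gm14511 and Gm5634 had 0.45 and 0.52 on R1 control, with -0.81 and -0.91 for Gm14511 and -0.66 and -0.77 for Gm5634 on AB2.2. Xlr5c, of the X-linked lymphocyte-regulated family, measured 1.05 against 0.03 and -0.42, with 0.98 on R1 Brca1 siRNA and -0.12 and -0.14 on PL2F8. Any close copies of these X-linked genes could share probe signal too, which was not tested. All 15 kept the call under the 8 other ways of computing tile values.

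The 15 largest deficits in R1 included several genes of multigene families, whose close copies could share probe signal. These were Olfr1501, Olfr168, Olfr1317, Olfr708 and Olfr1318, the cystatin-type protease inhibitors Stfa2 and Cst9, Ssxb2 and the sensory receptor gene Mrgpra2b. At 13 of the 15 the authors listed a peak on both AB2.2 arrays and not on R1 control. The exceptions were Mapk12 and 8430427H17Rik. Only called tiles with a named start and a listed peak on at least 1 of the 3 arrays could enter the 15. The count of 13 therefore follows in part from this choice. Of all tiles called lower, 27.2% had a listed peak on both AB2.2 arrays and not on R1 control, and 56.4% had none on the 3 arrays. Dnahc8, which encodes a heavy chain of axonemal dynein, had the lowest difference, at -0.61 on R1 control and 0.80 and 0.62 on AB2.2. It measured -0.57 on R1 Brca1 siRNA and 0.38 and 0.27 on PL2F8, so the 2 R1 arrays alone were below the array median. Mapk12, a p38 kinase of muscle, measured 0.84 against 1.99 and 1.72, with 1.41 on R1 Brca1 siRNA and 1.27 and 1.21 on PL2F8. At Grinl1a the AB2.2 arrays measured 0.67 and 0.68 and the other 4 between -0.35 and -0.20, and at Olfr1501 they measured 0.67 and 0.66 and the other 4 between -0.35 and -0.03. With the median of the probes, 7 of these 15 no longer reached the threshold: Olfr1501, Olfr168, Stfa2, Cst9, Cyp2j7-ps, Dnajb2 and Ssxb2.

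**Figure D4:**
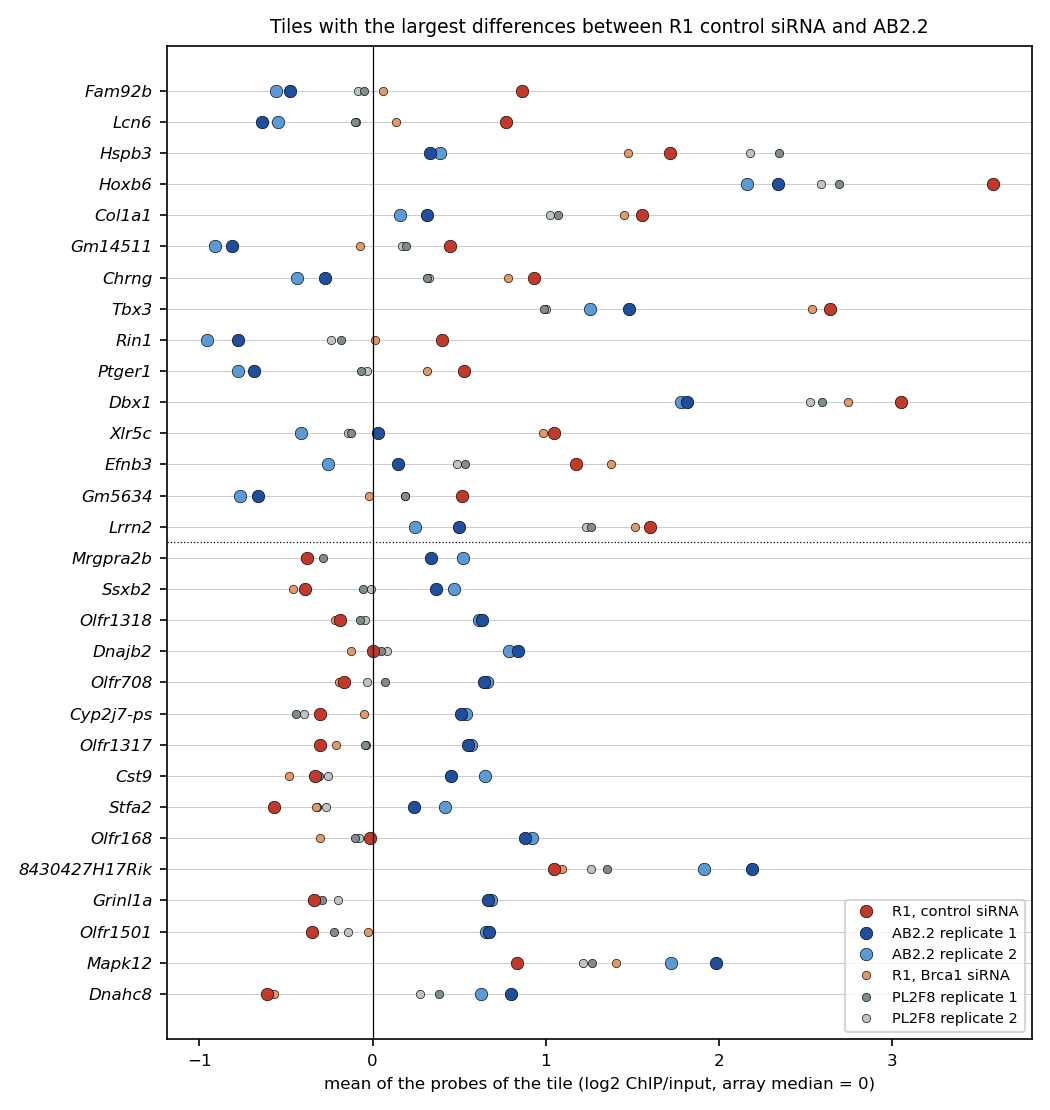
Mean log2 ChIP over input of the tile on each of the 6 arrays for the 15 genes with the largest positive (above the dotted line) and the 15 with the largest negative difference between R1 control and AB2.2. Large points are the 3 arrays compared; the red R1 control point lies right of both blue AB2.2 points in the upper 15 and left of both in the lower 15.

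The mean excess in R1 was of similar size along the promoter, and the mean deficit varied more with position. In 250 bp windows around the starts of tiles called higher, the difference lay between 0.61 and 0.86 in every window from -2500 to 1000 bp relative to the start. Around the starts of tiles called lower it was -0.42 in the window from -2500 to -2250 bp, -0.98 in that from 250 to 500 bp and -0.47 in that from 750 to 1000 bp. These windows come from the values that made the calls and describe shape only.

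At Hoxb6 (tile at chr11:96157284-96161284 in the coordinates of the files, whose genome build was not stated in the files or labels used) R1 control exceeded both AB2.2 arrays in every window but that from 1500 to 1250 bp upstream. In the window just upstream of the start it measured 4.22 against 3.10 and 3.07, and PL2F8 reached 4.34 and 4.10 there. Tbx3 differed mainly upstream, with 4.08 on R1 control and 1.51 and 1.02 on AB2.2 in the window from 1000 to 750 bp before the start, while from 250 bp before the start to the start R1 control was lower, at 0.96 against 2.80 and 2.44. At Dbx1, the window that holds the sequence above measured 4.41 on R1 control and 3.28 and 2.80 on AB2.2, if the start in the files is that of RefSeq. At Pax1 the same window measured 4.16 against 2.94 and 2.23, and from 500 to 750 bp after the start the values came closer, at 5.30 against 4.94 and 3.89.

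At Mapk12 the 5 windows from 1250 bp before the start to the start itself differed by -4.11 to -1.46, and the lowest difference in the other windows was -1.01. In the last 250 bp before the start, R1 control measured 1.79 and AB2.2 6.06 and 5.74, with 2.09 on R1 Brca1 siRNA and 2.70 and 2.69 on PL2F8; from 250 to 500 bp after it R1 control was the higher, at 3.04 against 2.59 and 1.88. At Dnahc8 the first 250 bp after the start measured 0.11 on R1 control and 4.51 and 3.58 on AB2.2. A second large deficit lay in the window from -2500 to -2250 bp, at 0.56 against 4.25 and 3.28, and the windows from -1500 to -750 bp differed by -0.295 to 0.192. At Olfr1501 the first 250 bp after the start measured -0.54 against 5.45 and 5.58, on 2 probes, and the next 250 bp -0.67 against 3.64 and 3.39, while the other windows of AB2.2 lay between -0.52 and 0.69. At Esrrb R1 control was higher in every window from 1250 bp before to 750 bp after the start, the strongest being the last 250 bp before the start, at 5.69 against 5.04 and 3.83.

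**Figure D5:**
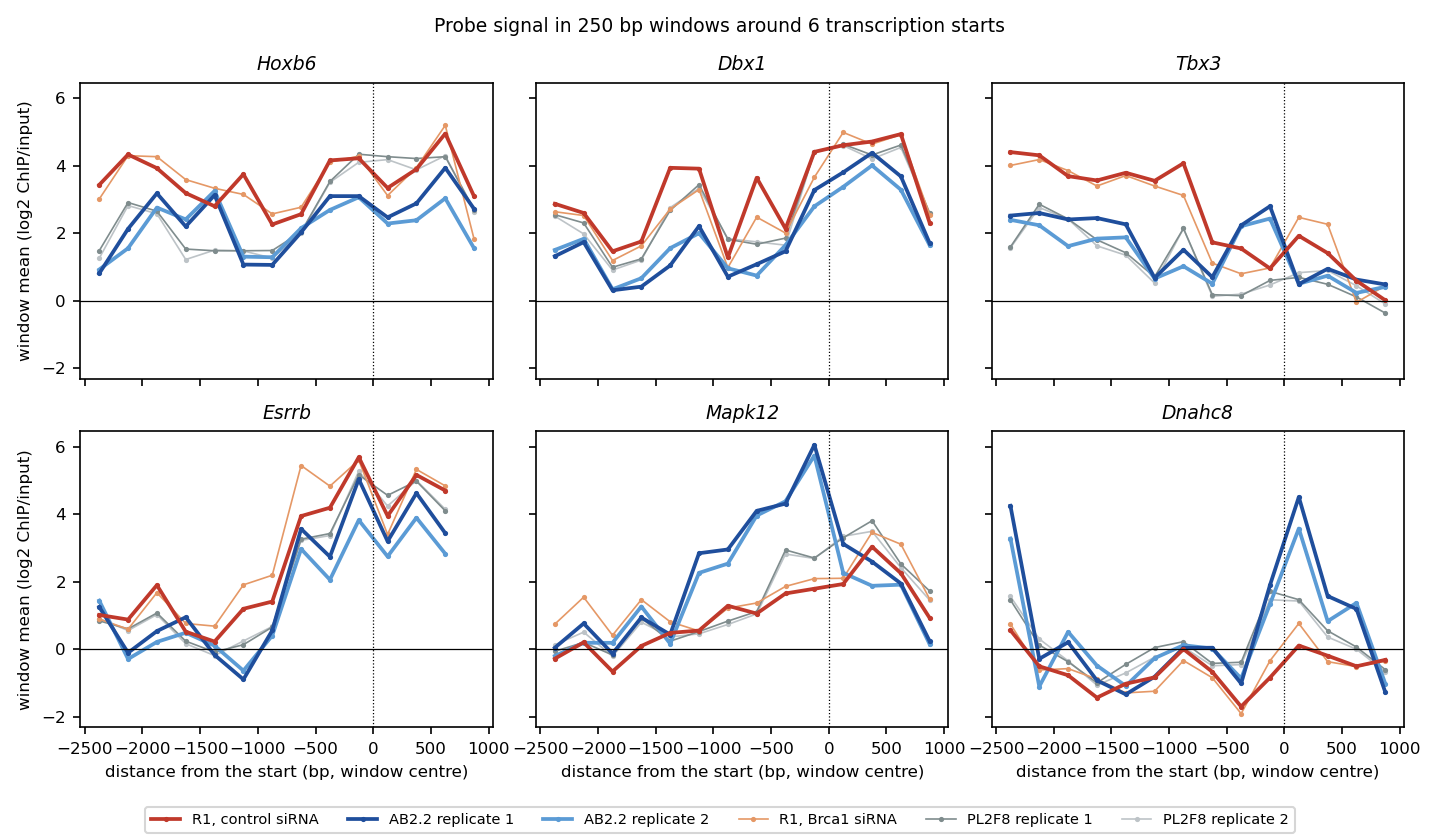
Mean log2 ChIP over input in 250 bp windows against the distance from the transcription start for 6 genes, 1 line per array. At Hoxb6, Dbx1 and Esrrb the red R1 control line runs above both blue AB2.2 lines over most windows, at Tbx3 it does so upstream, and at Mapk12 and Dnahc8 the AB2.2 lines peak near the start at 6.06 and 4.51 where R1 control is at 1.79 and 0.11.

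Local signal was less alike between arrays than tile means. When a tile was represented by its highest running mean of 5 neighbouring probes, 38.6% of tiles differed by 0.5 or more between R1 control and AB2.2, 27.5% between the 2 R1 arrays, 10.6% between the AB2.2 duplicates and 0.394% between the PL2F8 duplicates. The difference of R1 control and AB2.2 had an SD of 0.75 by this summary and 0.31 by tile means. The same limit of 0.5 is therefore passed more easily. At the level of single probes the R1 control array correlated with AB2.2 at 0.66 and 0.61 and with the R1 Brca1 siRNA array at 0.78, while the duplicates reached 0.95 for AB2.2 and 0.97 for PL2F8. With the median of the probes, 100 of the 305 tiles called lower were still called lower, and 1210 of the 1733 called higher were still called higher.

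The authors' peak list was longer for R1 control than for either AB2.2 array, and the AB2.2 lists also differed in length. They hold 6257 peaks for R1 control and 5482 and 4864 for AB2.2. With a false discovery rate of 0.05 or lower there were 3963 peaks for R1 control and 3724 and 3346 for AB2.2. R1 control then exceeded AB2.2 replicate 1 by less than the AB2.2 duplicates differed. By at least 1 bp, 61.3% of the R1 peaks were shared with AB2.2 replicate 1 and 54.1% with replicate 2, and of the AB2.2 peaks 70.0% and 69.6% overlapped an R1 peak. Between the AB2.2 duplicates the shares were 78.4% of replicate 1 and 88.3% of replicate 2. By gene, 4022 were listed on all 3 arrays, 1718 on R1 control and neither AB2.2 array, 652 on both AB2.2 arrays and not on R1 control, and 1232 in other combinations, on 1 AB2.2 array with or without R1. Restricted to peaks whose false discovery rate was 0.05 or lower, the lists left 1065 genes on R1 control alone and 640 on both AB2.2 arrays without R1.

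Most genes listed in 1 line only did not reach the call threshold in tile signal. The 1718 genes listed on R1 control alone had a median of 0.26 on that array and of -0.04 and -0.07 on AB2.2, and 499 of them (29.0%) were called higher. The 652 genes listed on both AB2.2 arrays alone had a median of 0.03 on R1 control and of 0.24 and 0.21 on AB2.2, with 81 (12.4%) called lower and 2 higher. The 4022 genes listed on all 3 arrays had a median of 0.95 on R1 control and of 0.80 and 0.71 on AB2.2, and 715 of them (17.8%) were called higher and 34 (0.845%) lower. The peaks come from the same signal as the tiles, so these are not separate evidence.

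By chromosome, the share of tiles called higher ran from 5.43% on chromosome 13 to 12.3% on chromosome 11, which holds the Hoxb cluster, leaving out the 14 tiles of the Y chromosome, of which none was called higher and 2 lower. The X chromosome had 6.45% higher and, with 2.89%, the largest share called lower of the chromosomes other than Y.

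On the arrays not compared, the tiles called higher measured a median of 0.62 on R1 control, -0.04 and -0.10 on AB2.2, 0.59 on R1 Brca1 siRNA and 0.43 and 0.40 on PL2F8. The tiles called lower measured -0.31 on R1 control, 0.29 and 0.32 on AB2.2, -0.31 on R1 Brca1 siRNA and -0.15 and -0.13 on PL2F8. In both groups the 3 arrays that took no part in the call lay on the R1 side of AB2.2 at the median. This follows in part from the choice of tiles, which were called because AB2.2 lay apart from R1 control. Moreover, 1 of the 3 arrays is the other R1 array. Tiles with a listed peak on at least 1 of the 3 arrays were called higher in 17.9% of cases and those with none in 3.94%, and called lower in 1.85% and 1.52%. The listed peaks come from the same signal as the calls, so these shares are not independent of them. The 447 tiles called higher with no listed peak had a median of 0.10 on R1 control and of -0.52 and -0.54 on AB2.2.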

How the data were processed

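The authors hybridised Ezh2-precipitated DNA (Cy5) and input DNA (Cy3) to promoter tiling arrays, with no dye swap, per the labels. The deposited probe values are log2 ratios (Cy5 over Cy3) whose normalization, software and genome build the sources used here do not give; the medians of the arrays lay between 0.02 and 0.04. The peak lists of the authors give a false discovery rate as a fraction, up to 0.198, and, per the file headers, a log2 score, the ratio of the fourth highest probe, which correlated with the table at r of 0.97 to 0.99 and was 0.98 times its value at the median, so scale and direction are those of ChIP over input.

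Here each array was centred on its probe median (Python 3.11.15, pandas 2.3.3) and averaged per tile. Tiles took the genes whose start in the peak lists lay in them; a gene with several tiles was represented by that with the highest mean over the 6 arrays. The 3 arrays limit the precision, and the main comparison has no test. An alternative fit, limma 3.58.1 in R 4.3.3, assumes that the lone R1 array varies like the duplicated ones. The call rule and limma were tested on simulated data. Genes were named by rule: the 15 highest and 15 lowest differences among called tiles that hold a named start and a listed peak on at least 1 of the 3 arrays, and the 2 highest and 2 lowest of each list. Some genes that the rule names are not reported here. Of 20 lists written, 19 had at least 5 measured members. The members and lists were chosen with earlier results of these data known. Promoter sequences are from RefSeq (GRCm38.p6); 7429 of 9614 named genes matched by symbol. Alternatives were quantile normalization, scaling to 1 median absolute deviation, centring on tiles with no listed peak, other tile summaries, stricter filters, and leaving out each AB2.2 array.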

Additional observations from a re-analysis of the deposited data

How the results depend on the processing

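No paired analysis was possible because the R1 control group has 1 array and shares fewer than 2 replicate numbers with AB2.2. The number of tiles higher on the R1 control array, and the number of tiles lower on the R1 control array, were 1032 and 564 under quantile normalization, 4596 and 2565 for the maximum of the running mean over 5 probes, and 93 and 7 where a difference of at least 1 was required, against 1733 and 305. Leaving out 1 AB2.2 array gave 1480 to 2059 higher and 299 to 327 lower. The limma fits had 2 residual degrees of freedom with 6 arrays and 1 with 3 arrays. Their p-values rest on the duplicates alone, since the lone R1 array is assumed to vary like them. Almost every tile past the limit of 0.5 passed them, so they add no check on the calls and are not given.

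The median over all tiles changed sign under quantile normalization, from 0.05 to -0.032, and so did those of germline (-0.043), Polycomb (-0.023) and clustered protocadherin genes (-0.052). The other medians were then 0.070 for all named genes, 0.49 Hox, 0.30 other homeobox, 0.24 mesoderm and endoderm, 0.14 neural, 0.14 signalling, 0.0011 pluripotency, 0.23 trophoblast, 0.039 imprinted, 0.16 interferon, 0.054 DNA repair, 0.0035 ribosomal, 0.19 housekeeping, -0.12 olfactory and 0.24 MHC. Scaling to the same median absolute deviation gave 0.53 for Hox, 0.31 for other homeobox, 0.26 for mesoderm and endoderm, 0.19 for neural and 0.11 for extraembryonic endoderm genes. The median of the probes gave 0.835 for Hox, 0.525 for mesoderm and endoderm, 0.3825 for extraembryonic endoderm, 0.015 for DNA repair and for ribosomal, 0.3575 for housekeeping, -0.105 for olfactory and, with the sign changed, -0.0425 for protocadherin genes. The running mean gave 0.28 for all named genes, 0.45 Hox, 0.29 pluripotency, 0.53 trophoblast, 0.59 extraembryonic endoderm, 0.32 imprinted, 0.26 germline, 0.51 interferon, 0.335 fibroblast, 0.52 DNA repair, 0.31 ribosomal, 0.11 housekeeping, 0.365 protocadherin, 0.66 MHC and, with the sign changed, 0.16 for olfactory genes. Leaving out 1 AB2.2 array gave 0.22 to 0.34 for neural, 0.20 to 0.39 for signalling, 0.18 to 0.39 for extraembryonic endoderm, 0.078 to 0.20 for Polycomb and 0.43 to 0.58 for fibroblast genes. Of 792 recomputed values of single named genes, 579 moved by less than 1 SD of the AB2.2 duplicates (the larger of that at the gene and that over all tiles) and 213 by at least as much; 16 changed sign, none of them at a called gene. The cause of these shifts was not tested.

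For peaks whose false discovery rate was 0.05 or lower, genes listed on R1 control alone numbered 1065 in place of 1718. The shares of overlapping peaks were then 64.7% and 57.5% of R1 peaks in AB2.2 replicates 1 and 2, and 67.96% of replicate 2 in R1. Requiring an overlap of 50% of the shorter peak gave 55.2% and 48.3% of R1 peaks, 63.04% and 62.1% of AB2.2 peaks in R1, and 76.5% and 86.2% between the AB2.2 duplicates.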
